A study of Mus musculus with 3 samples.

Results

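The genes described here are CC chemokines and CC chemokine receptors used by myeloid cells, namely the 5 ligand genes Ccl2, Ccl3, Ccl4, Ccl6 and Ccl9 and the 2 receptor genes Ccr1 and Ccr2. They were taken by gene symbol, and all 7 have exactly 1 row among the 17250 gene names in the deposited tables. Bone marrow (BM) cells came from C57BL/6 mice 6 to 8 weeks old, which the methods describe as male. The mice had received subcutaneous recombinant LECT2, made in CHO cells, once daily at 300 μg per kg for 3 or for 5 days, or for 0 days. No label names a carrier injection for the library of 0 days, and the number of mice behind a library is not given in the sources used here. Each time point is represented by 1 RNA-sequencing library, so no difference has a replicate check and no p-value was computed. The libraries held between 15146983 and 15523952 reads on genes, at which 1 read per 1000 bases of transcript is worth between 0.0644 and 0.0660 RPKM. RPKM is the number of reads on a gene corrected for its length and for the depth of its library. Series of 3 values run in the order of 0, 3 and 5 days. Intervals given below are exact 95% intervals for counting error alone.

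CC chemokines are small secreted proteins with a pair of adjacent cysteines that attract leukocytes through G protein-coupled receptors. Ccl3 (MIP-1α) and Ccl4 (MIP-1β) are inflammatory chemokines made by activated myeloid cells and lymphocytes, and Ccl3 is also known as an inhibitor of stem cell proliferation. Ccl2 (MCP-1) is a main ligand of Ccr2, the receptor through which inflammatory monocytes leave the marrow. Ccr1 is carried by monocytes and neutrophils and binds Ccl3, Ccl6 and Ccl9. LECT2, a leukocyte cell-derived chemotaxin, is a secreted protein, given here in a study of stem cell mobilisation from the marrow. The study also measured CCL3 and CCL4 protein, in experiments not analysed here.

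At 5 days of LECT2 Ccl2, Ccl3, Ccl4, Ccl6 and Ccr1 were lower and Ccr2 higher than at 0 days, while Ccl9 was nearly level with the deposited RPKM. Under TMM scaling and with the length trend removed, both described below, Ccl9 was also lower, at log2 ratios of −0.44 and −0.57. Summed over the 5 ligands, the level was 1956, 1217 and 640 RPKM over the time course. Summed over both receptors it was 124, 183 and 174 RPKM, of which Ccr2 made up 36.3%, 46.8% and 81.5%. At 5 days against 0 days, 4 of the 7 genes (Ccl2, Ccl3, Ccl4 and Ccr1) were at least 2-fold lower, where 5.91% of 11497 genes tested were, and 1 gene, Ccr2, was at least 2-fold higher, where 15.5% of all genes were. At 3 days against 0 days 1 gene, Ccl4, was at least 2-fold lower, beside 2.41% of 11325 genes, and 0 of the 7 were at least 2-fold higher, beside 4.08%. From 3 to 5 days 3 genes (Ccl2, Ccl4 and Ccr1) were at least 2-fold lower, beside 3.45% of 11375 genes, and 0 were at least 2-fold higher, beside 1.95%. Genes tested had at least 1 RPKM in either library, and ratios are those of RPKM + 0.1. Just outside the limit were Ccl6 at 5 against 0 days and Ccl3 from 3 to 5 days, both with a log2 ratio of −0.99, Ccr2 at 3 days with 0.93 and Ccl6 from 3 to 5 days with −0.91. Just inside it was Ccl2 at 5 against 0 days, with −1.11. The median log2 ratio of the 7 genes was −0.08 at 3 days and −1.11 at 5 days, beside 0.09 and 0.31 over all genes tested. With the counts scaled by TMM factors, which moved the median of all genes at 5 days from 0.31 to 0.01, 5 of the 7 genes were at least 2-fold lower at 5 days, beside 9.96% of all genes, and the same single gene was at least 2-fold higher, beside 7.24%. With the trend of the ratios on gene length removed these counts were 3 and 1, beside 7.61% and 5.05%. At 3 days both corrections left 1 gene lower and 0 higher, beside 3.16% and 3.08% under TMM and 1.81% and 2.59% without the length trend. From 3 to 5 days both gave 5 lower and 0 higher, beside 4.84% and 0.651% under TMM and 4.93% and 0.659% without the length trend.

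**Figure D1:**
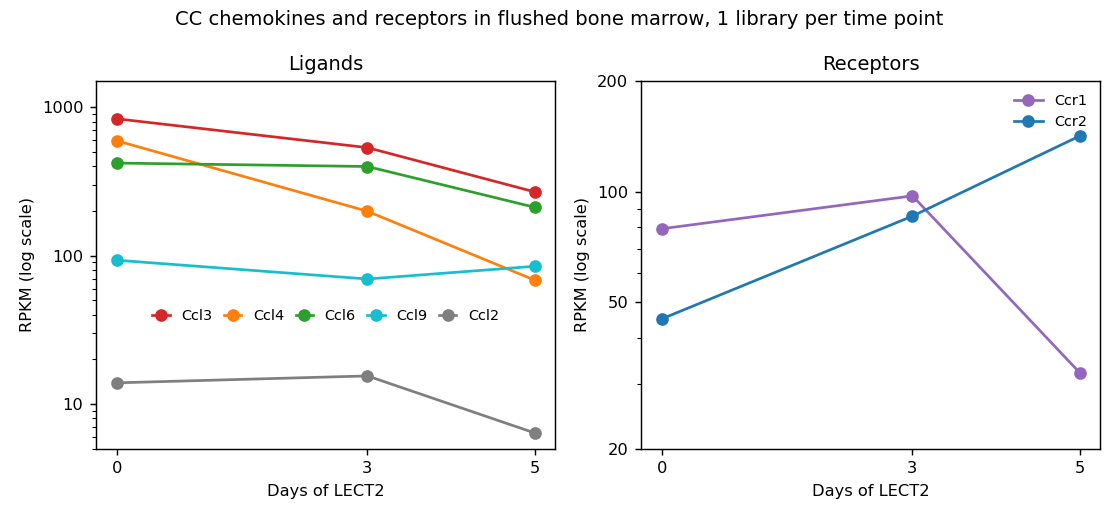
Level of each gene (vertical axis, RPKM on a log scale) against days of LECT2 (horizontal axis), with the 5 ligands on the left and the 2 receptors on the right. Each point is 1 library and carries no error bar. Ccl4 went from 594 to 68.5 RPKM, Ccl9 stayed between 69.6 and 93.1 RPKM, and the order of Ccr1 and Ccr2 was turned at 5 days.

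Ccl3 was the most abundant of the 7 genes at every time point. Its reads numbered 10421, 6505 and 3355 over the time course, or 835, 534 and 269 RPKM. Its level was thus highest at 0 days and lowest at 5 days, where it stood at 32.2% of the level at 0 days, a log2 ratio of −1.63 (−1.69 to −1.58). Ranked by RPKM among all genes with any reads, Ccl3 was still at percentile 98.6 on the last occasion, from 99.4 on the first. The log2 ratio was −0.64 (−0.69 to −0.60) for the first 3 days and −0.99 (−1.05 to −0.93) from 3 to 5 days. Once the trend on gene length was removed (Ccl3 has 804 bases), the first of these values was −0.19 and the ratio at 5 against 0 days −1.27.

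Ccl4 had the lowest log2 ratio of the 7 genes at 3 and at 5 days against 0 days. It had 6215, 2032 and 716 reads, or 594, 199 and 68.5 RPKM. It was 2.98-fold lower at 3 days and 8.67-fold lower at 5 days, with log2 ratios of −1.58 (−1.65 to −1.50) and −3.12 (−3.23 to −3.01). The second step, from 3 to 5 days, was 2.91-fold. In the order of levels Ccl4 went from the second place among the 7 genes at 0 days to the third at 3 days and the fifth at 5 days, below Ccl9. At each time point neighbours in this order had RPKM intervals for counting error that did not overlap, which says nothing of the spread between mice.

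Ccl3 and Ccl4 are neighbours on chromosome 11 and are often described as a pair, but their levels did not move in step. Ccl3 lies from 83647844 to 83649355 on the minus strand and Ccl4 from 83662584 to 83664683 on the plus strand, 13.2 kb apart (GENCODE M21, GRCm38). For each RPKM of Ccl3 there were 0.711, 0.373 and 0.255 RPKM of Ccl4. This ratio is taken within a library and does not depend on library scaling, though a trend on gene length can still move such a ratio where the lengths differ. Its log2 change was −0.93 (−1.02 to −0.85) at 3 days and −1.48 (−1.61 to −1.36) at 5 days. Ccl3 kept a nearly constant share of the summed ligand RPKM, 42.7%, 43.9% and 42.0%, whereas the share of Ccl4 went from 30.4% to 16.4% and 10.7%.

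The untranslated 3′ ends of cytokine transcripts often hold AUUUA pentamers, which are bound by factors that control mRNA decay. The pentamer, written ATTTA, was counted in the 3′ end of the longest coding transcript of each gene (GENCODE M21, GRCm38). Ccl3 has 5 in 409 bases, which places it at percentile 99.3 of 20949 genes by pentamers per 1000 bases. Ccl4 has 2 in 302 bases (percentile 96.1), Ccl6 4 in 943 (88.9), Ccl2 1 in 275 (84.8), Ccr2 8 in 2701 (77.9), Ccl9 5 in 2465 (64.9) and Ccr1 1 in 1300 (41.2). At least 1 pentamer is present in 64.7% of all these genes. These counts describe letters only. The following stretch of 30 bases holds the most pentamers in Ccl3, with the pentamers in capitals, and is shown because Ccl3 has the highest density of the 7 genes.
Ccl3, chr11:83648073-83648102, minus strand: gaaattttATTTAATTTAatcctattggtt

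Ccl6 and Ccl9 encode closely related ligands of Ccr1 and were examined side by side. Ccl6 had 9371, 8667 and 4719 reads, or 420, 398 and 212 RPKM. Its level was nearly flat to 3 days and then lower, with log2 ratios against 0 days of −0.08 (−0.12 to −0.03) and −0.99 (−1.04 to −0.94). The value at 3 days had no stable direction, being −0.16 under TMM scaling and 0.13 with the length trend removed. Ccl9 had 4349, 3171 and 3955 reads, or 93.1, 69.6 and 84.7 RPKM, and was the ligand with the smallest difference between 0 and 5 days. Its log2 ratio was −0.42 (−0.49 to −0.35) at 3 days and −0.14 (−0.20 to −0.07) at 5 days, where TMM scaling gave −0.44 and removal of the length trend −0.57. From 3 to 5 days it was at 0.28 (0.22 to 0.35) with the deposited RPKM, but at 0.06 under TMM scaling and 0.00 without the length trend.

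Ccl9 and Ccl6 lie next to each other on the minus strand of chromosome 11, from 83572919 to 83578636 and from 83587882 to 83593087, with 9.2 kb between them (GENCODE M21, GRCm38). Within each library the RPKM of Ccl6 was 4.51, 5.73 and 2.50 times that of Ccl9. How reads shared by these related genes were counted is not given in the sources used here. The log2 change of this ratio from 3 to 5 days was −1.20 (−1.28 to −1.11). As the other ligands became lower, the share of Ccl9 in the summed ligand RPKM went from 4.76% at 0 days to 13.2% at 5 days. The 250 bases before the start sites of both genes are shown because these neighbours differed at 5 days (RefSeq, GRCm38.p6, 5′ to 3′ along the gene). Capitals mark matches, on either strand, to motifs known for factors active in myeloid cells, searched as GGG and CC with any 5 letters between (NF-kB), TGANTCA (AP-1), TGACGTCA (CRE), TTNNGNAA (C/EBP) and GAGGAA (the core bound by PU.1).
Ccl6, chr11:83593088-83593337, minus strand: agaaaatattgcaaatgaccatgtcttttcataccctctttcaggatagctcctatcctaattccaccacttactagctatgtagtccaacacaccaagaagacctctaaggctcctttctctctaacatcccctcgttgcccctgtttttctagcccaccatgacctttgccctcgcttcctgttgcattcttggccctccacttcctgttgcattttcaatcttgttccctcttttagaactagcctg
Ccl9, chr11:83578637-83578886, minus strand: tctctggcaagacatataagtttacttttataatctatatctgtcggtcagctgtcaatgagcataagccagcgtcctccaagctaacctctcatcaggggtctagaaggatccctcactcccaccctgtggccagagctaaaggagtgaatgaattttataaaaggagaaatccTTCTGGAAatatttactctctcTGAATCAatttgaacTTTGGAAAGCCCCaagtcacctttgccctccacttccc
The Ccl6 window holds none of these letter patterns. The Ccl9 window holds an NF-kB match on the opposite strand from 35 to 26 bases before the start, which overlaps a TTNNGNAA match from 38 to 31 bases, another TTNNGNAA match from 75 to 68 bases and a TGANTCA match from 53 to 47 bases. Of 27018 promoters, 45.4% hold the NF-kB letters, 36.9% TTNNGNAA, 23.1% GAGGAA, 6.87% TGANTCA and 1.62% TGACGTCA in the same 250 bases. The Ccl3 window holds a TTNNGNAA match from 100 to 93 bases and, on the opposite strand, GAGGAA from 33 to 28 bases before the start. The longest run shared by the Ccl6 and Ccl9 windows has 13 bases. These matches describe letters only and were not set against any binding data.

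Ccl2 was the least abundant of the 7 genes. Only 174, 189 and 80 reads fell on it, or 13.9, 15.5 and 6.40 RPKM. The difference at 3 days was within counting error with the deposited RPKM, at a log2 ratio of 0.15 (−0.15 to 0.46), but it was 0.61 with the length trend removed. At 5 days its level was 46.0% of that at 0 days, a log2 ratio of −1.11 (−1.52 to −0.73), and −0.74 with the length trend removed, no longer past 2-fold. Ccl2 lies on chromosome 11 from 82035571 to 82037453 on the plus strand, apart from the 4 other ligands (GENCODE M21, GRCm38).

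**Figure D2:**
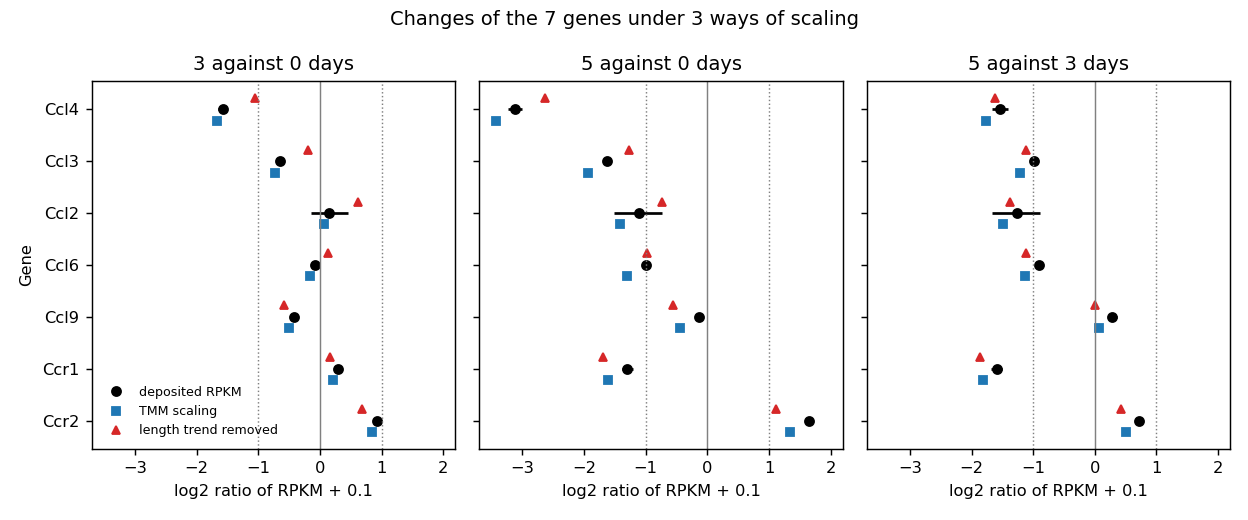
Log2 ratio of RPKM + 0.1 (horizontal axis) of each gene (vertical axis) for the 3 pairs of time points. Black points are the deposited RPKM with the 95% interval for counting error, blue squares TMM scaling and red triangles the ratios without their trend on gene length, and dotted lines mark 2-fold. Ccl4 lies beyond −1 in every panel and Ccr2 lies above 0 in every panel under all 3 ways of scaling.

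The 2 receptors went opposite ways at 5 days. Ccr2 had 2514, 4667 and 7892 reads, or 45.1, 85.8 and 142 RPKM, the highest level at the last time point. It was 1.90-fold higher at 3 days and 3.14-fold higher at 5 days, with log2 ratios of 0.93 (0.86 to 1.00) and 1.65 (1.59 to 1.72). With the length trend removed the value at 5 days was 1.12, and under TMM scaling 1.34. Ccr1 had 3486, 4179 and 1416 reads, or 79.3, 97.5 and 32.2 RPKM, with the highest level at 3 days. Its log2 ratio was 0.30 (0.23 to 0.36) at 3 days and −1.30 (−1.39 to −1.21) at 5 days, and between 3 and 5 days it was 3.02-fold lower.

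Ccr1 was the more abundant receptor at 0 and 3 days and Ccr2 at 5 days. Ccr1 made up 63.7%, 53.2% and 18.5% of the summed RPKM of both. For each RPKM of Ccr1 there were 0.569, 0.881 and 4.40 RPKM of Ccr2, which is a 7.73-fold higher ratio at 5 days than at 0 days. On the log2 scale this change was 2.95 (2.84 to 3.06), of which 2.32 (2.22 to 2.42) came between 3 and 5 days. Both genes lie in a group of receptor genes on chromosome 9. Ccr1 extends from 123962124 to 123968692 on the minus strand and Ccr2 from 124101950 to 124113557 on the plus strand (GENCODE M21, GRCm38). Ccr3, the eotaxin receptor of eosinophils, lies between them and had 6.18, 9.18 and 8.57 RPKM. The 250 bases before each RefSeq start site are shown because the receptors moved apart (GRCm38.p6), with the same motifs in capitals. The RefSeq start of Ccr1 is that of GENCODE, but the RefSeq start of Ccr2 lies 233 bases downstream of the GENCODE start, so most of its window falls within the gene as GENCODE draws it.
Ccr1, chr9:123968693-123968942, minus strand: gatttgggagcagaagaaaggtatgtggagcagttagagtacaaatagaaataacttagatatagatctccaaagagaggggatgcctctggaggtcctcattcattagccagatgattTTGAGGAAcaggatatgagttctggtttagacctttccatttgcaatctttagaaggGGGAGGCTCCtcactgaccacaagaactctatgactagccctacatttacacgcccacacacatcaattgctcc
Ccr2, chr9:124101933-124102182, plus strand: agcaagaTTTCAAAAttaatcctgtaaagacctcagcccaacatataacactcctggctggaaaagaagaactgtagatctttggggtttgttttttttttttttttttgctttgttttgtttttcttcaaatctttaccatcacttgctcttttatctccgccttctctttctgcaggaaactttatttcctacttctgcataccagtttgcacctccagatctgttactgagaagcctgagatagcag
The Ccr1 window holds TTNNGNAA from 131 to 124 bases before the start, overlapping GAGGAA from 129 to 124 bases, and an NF-kB match from 74 to 65 bases. The Ccr2 window holds a TTNNGNAA match on the opposite strand from 243 to 236 bases.

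The libraries hold RNA of all flushed cells, in which fewer cells of a type and less RNA per cell cannot be told apart. All 17 markers of monocytes and macrophages and all 12 markers of neutrophils had reads in the 3 libraries, so transcripts used as markers of both kinds of myeloid cell were present. The summed level of the neutrophil markers was 150033, 115996 and 41373 RPKM. At 5 days all 11 that could be tested lay at least 2-fold below 0 days, beside 5.91% of all genes (median log2 ratio −1.88). With the length trend removed 10 of them did, beside 7.61% of all genes, and Ngp was at −0.95. The most abundant neutrophil markers were S100a9, S100a8, Ngp and Camp. The list did not move as one at 3 days, when 8 of the 11 were below and 3 above their level at 0 days with the deposited RPKM. The summed level of the monocyte and macrophage markers was 5565, 7204 and 6645 RPKM, and at 5 days 8 of 17 were at least 2-fold higher, beside 15.5% of all genes, and 1 lower, with a median of 0.74. Under TMM scaling 6 were higher, beside 7.24% of all genes, and the median was 0.43. Of the most abundant, Mpeg1 and F13a1 had log2 ratios of 1.27 and 2.34 at 5 days, while Ly6c2 was at 0.29 and Lyz2 at 0.01. Mpeg1 fell short of 2-fold under TMM scaling, at 0.97, and Ly6c2 and Lyz2 had no stable direction, being at −0.02 and −0.30 there. The 1 marker that was at least 2-fold lower was Cd14, the co-receptor for endotoxin, at −1.99. The part of these shifts in the chemokine and receptor levels was not tested.

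The receptors were also set against single markers of these cells, which were chosen after their values were seen. Csf1r, the receptor for M-CSF that defines monocytes and macrophages, had 26.7, 49.6 and 85.3 RPKM. The RPKM of Ccr2 was 1.69, 1.73 and 1.66 times that of Csf1r, and the log2 change of this ratio at 5 days was −0.03 (−0.13 to 0.08), within counting error. Against Ly6c2, which marks inflammatory monocytes, the ratio of Ccr2 was 2.57-fold higher at 5 days, and 1.43-fold with the length trend removed. Ccr1 was at 2.97, 1.96 and 0.378 times the RPKM of Csf1r, a log2 change at 5 days of −2.98 (−3.10 to −2.86). Cxcr2, the receptor through which mature neutrophils follow CXC chemokines, went from 63.8 to 112 and 21.9 RPKM, and Ccr1 for each RPKM of Cxcr2 was 1.24, 0.867 and 1.47. The log2 change of that ratio was −0.52 (−0.61 to −0.43) at 3 days and 0.24 (0.11 to 0.38) at 5 days, both beyond counting error.

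**Figure D3:**
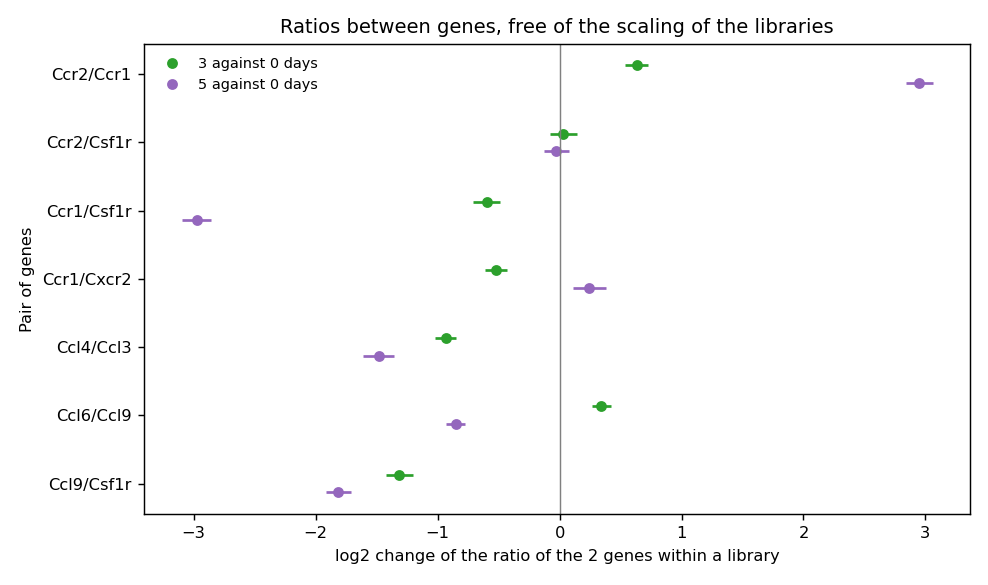
Log2 change, against 0 days, of the ratio between 2 genes within a library (horizontal axis) for 7 pairs (vertical axis), at 3 days in green and at 5 days in purple, with 95% intervals for counting error. Ccr2/Csf1r stays at 0 at both times, while Ccr2/Ccr1 reaches 2.95 and Ccr1/Csf1r −2.98 at 5 days.

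Of the ligands, 3 were set against myeloid markers in the same way. Ccl9 for each RPKM of Csf1r was 3.49, 1.40 and 0.993. For each RPKM of F13a1, the subunit of coagulation factor XIII that monocytes make, it was 1.29, 0.394 and 0.232. These ratios depend on the marker, since Csf1r and F13a1 were themselves higher at 5 days, at log2 ratios of 1.67 and 2.34. Ly6c2 and Lyz2 were at 0.29 and 0.01 and Ccl9 at −0.14, and of all 17 markers of that list 13 were above 0 and 4 below 0. Ccl3 was set against Cd14, the 1 marker of its list that was at least 2-fold lower at 5 days, with 5.66, 5.38 and 7.28 RPKM for each RPKM of Cd14, a log2 change of −0.07 (−0.16 to 0.02) at 3 days and 0.36 (0.24 to 0.49) at 5 days. With the length trend removed these changes were 0.20 and 0.74, so the one at 3 days had no stable direction. Ccl6 for each RPKM of Lyz2, the lysozyme of myeloid cells, was 0.108, 0.0778 and 0.0543.

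Of 16 other CC chemokines on the list 13 have a row, and 3 (Ccl5, Ccl25 and Ccl27a) averaged 1 RPKM or more. Ccl5 (RANTES), a chemokine of T and NK cells, had 562, 272 and 405 reads, or 62.5, 31.0 and 45.1 RPKM. At 3 days it was the only 1 of the 3 tested that was at least 2-fold lower, beside 2.41% of all genes, at −1.01 (−1.23 to −0.80). The removal of the length trend took it back within 2-fold. At 5 days 0 of the 4 tested were at least 2-fold lower or higher, beside 5.91% and 15.5% of all genes. With the length trend removed 1 of the 4, Ccl8, was at least 2-fold higher at 5 days, at 1.53, beside 5.05% of all genes. The deposited RPKM of Ccl8, from 5 and 10 reads, gave 0.90 (−0.68 to 2.90). T and NK cell markers had a summed level of 237, 136 and 194 RPKM, lowest at 3 days like Ccl5, with Nkg7, Gzma, Cd4 and Cd3g the most abundant. Ccl25 had between 27 and 30 reads and Ccl27a between 18 and 30, and their intervals at 3 and 5 days all span 0. Ccl7, a further Ccr2 ligand beside Ccl2, had 9, 7 and 4 reads.

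Of 12 other CC and atypical receptors, all have a row and 5 averaged 1 RPKM or more. At 5 days 2 of the 6 tested were at least 2-fold lower, Ccr7 and Ccrl2, and 0 were higher, where 5.91% and 15.5% of all genes were. Ccr7, which guides lymphocytes and dendritic cells to lymph nodes, had 2039, 1082 and 393 reads, or 66.5, 36.2 and 12.8 RPKM, and was 5.19-fold lower at 5 days. Ccrl2, an atypical receptor of activated neutrophils and macrophages, had 2613, 2209 and 437 reads, or 79.8, 69.1 and 13.3 RPKM, and was 5.98-fold lower. At 3 days its log2 ratio was −0.21 (−0.29 to −0.12), where that of Ccr1 was 0.30. Ccr9, a receptor of plasmacytoid dendritic cells and T cells, stayed between 12.1 and 15.2 RPKM, and Darc (Ackr1), the chemokine-binding receptor of erythroid cells and vessels, between 3.42 and 5.79.

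**Figure D4:**
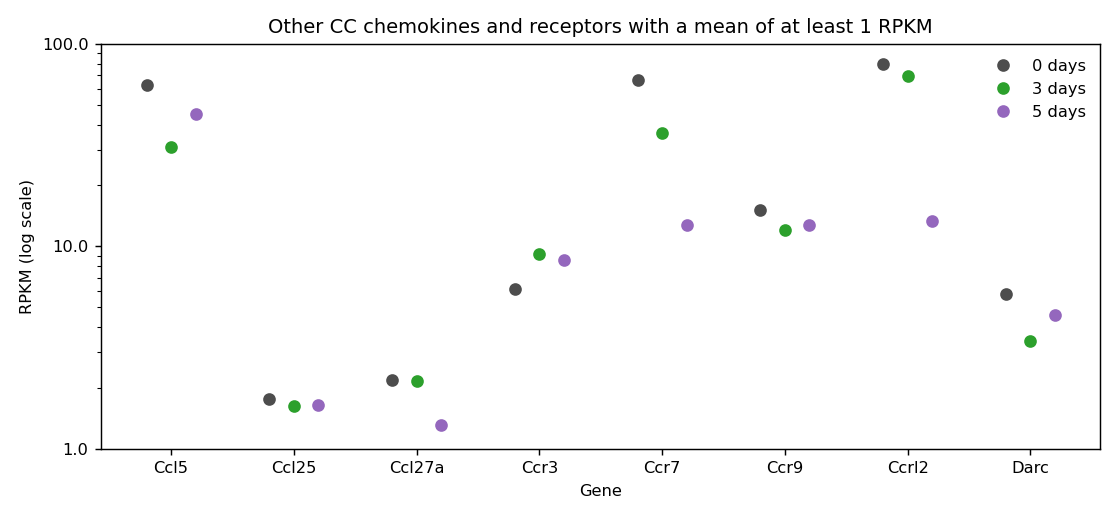
Level (vertical axis, RPKM on a log scale) of the 8 other CC chemokine and receptor genes whose 3 libraries averaged 1 RPKM or more (horizontal axis), 1 point per library, at 0 days in grey, 3 days in green and 5 days in purple. Ccr7 and Ccrl2 are far lower at 5 days, at 12.8 and 13.3 RPKM, and Ccl5 is lowest at 3 days.

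Genes that carry the signal of these receptors inside the cell were also examined. The list holds G proteins, receptor kinases, arrestins, RGS proteins and the PI3K and Rac machinery of migration. Of 29 such genes tested, 0 were at least 2-fold lower or higher at 3 days (median log2 ratio 0.40, beside 0.09 over all genes), and at 5 days 2 were lower and 3 higher, where 5.91% and 15.5% of all genes were, with a median of 0.31, beside 0.31 over all genes. The most abundant were Gnai2, the inhibitory G protein that chemokine receptors use, at 518, 599 and 556 RPKM, and Rac2, the haematopoietic Rac GTPase, at 515, 526 and 395 RPKM. Adrbk1, the receptor kinase GRK2, and Gnb2, a G protein β subunit, had log2 ratios of 0.07 and 0.23 at 5 days. The genes at least 2-fold lower were Rgs1 and Rgs2, which shorten G protein signals, at −1.57 and −1.24, and those at least 2-fold higher were Adrbk2, Grk5 and Jak2, at 1.08, 1.31 and 1.01. These 5 were named after their values were seen. Under TMM scaling Grk5 was still 2-fold higher, at 1.01, while Adrbk2 and Jak2 were at 0.78 and 0.70. With the length trend removed Adrbk2, Grk5 and Jak2 were all short of 2-fold, at 0.30, 0.85 and 0.35.

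Most of the immediate early genes, which react within minutes to handling or stimulation of cells, were at least 2-fold lower at 5 days than at 0 days. So were 3 of the 5 ligands (Ccl2, Ccl3 and Ccl4), with Ccl6 just short of it at −0.99. The summed level of the immediate early genes was 7047, 5840 and 2022 RPKM. Of these genes 16 of 19 were at least 2-fold lower at 5 days, where 5.91% of all genes were (median log2 ratio −1.67, beside 0.31 over all genes). The most abundant were Zfp36, Fos, Klf2 and Junb. Zfp36, which binds AU-rich 3′ ends and speeds their decay, went from 1228 to 1055 and 395 RPKM. The part of these genes in the chemokine levels was not tested. Of markers of other cells, at 5 days 1 of 9 T and NK cell, 0 of 8 B cell, 2 of 7 erythroid (Hbb-b1 and Hba-a1), 0 of 6 megakaryocyte and 0 of 9 basophil, mast cell and eosinophil markers were at least 2-fold lower, and of the last 2 were higher (Epx and Ms4a2), with Epx short of 2-fold under TMM scaling. Over all genes 5.91% were lower and 15.5% higher, and under TMM scaling 9.96% and 7.24%. Under TMM scaling the counts of lower T and NK cell, B cell, erythroid and megakaryocyte markers were 2, 1, 3 and 1. Of the 5 osteolineage markers tested with more than 3 reads in both libraries, 4 were lower (Spp1, Col1a1, Col1a2 and Ibsp), and the summed level of the list was between 26.3 and 71.3 RPKM.

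**Figure D5:**
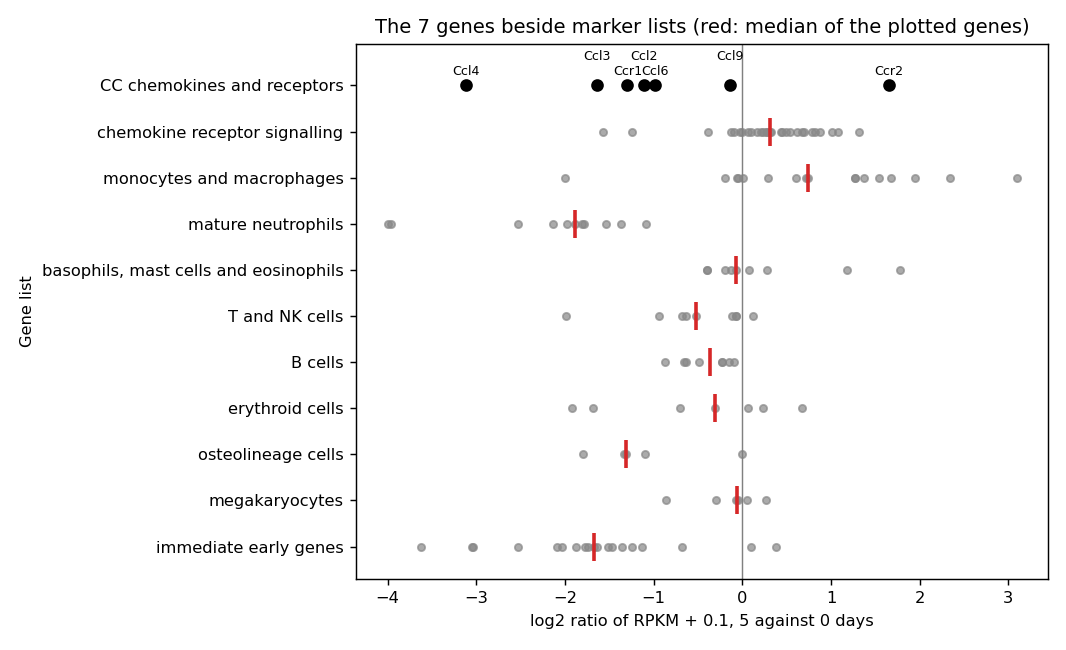
Log2 ratio of RPKM + 0.1 at 5 against 0 days (horizontal axis) of the 7 genes, named in the top line, and of the members of 10 gene lists (vertical axis), 1 point per gene and a red bar at the median of the genes plotted. Genes under 1 RPKM in both libraries and genes with 3 reads or fewer in a library are not drawn. Ccr2, at 1.65, lies above 0 with most monocyte and macrophage markers, and Ccl4, at −3.12, lies below the median of the neutrophil markers (−1.88).

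The genes nearest to each of the 7 in their pair of log2 ratios (3 against 0 days and 5 against 3 days) were found among 8192 genes that averaged 5 RPKM or more, by Euclidean distance over these 2 values from 3 libraries. For Ccl4 the nearest, Rasgef1b, was 0.29 away, and the next was Nfkbia, the NF-kB inhibitor that NF-kB itself induces, at 0.42, which went from 991 RPKM to 401 and 172. For Ccl3 they were 2310001H17Rik at 0.04 and Rgs1 at 0.05, and for Ccl6 Ier5 and Fbxo30, both at 0.05. Tarm1, a myeloid receptor, at 0.04 and Trp53inp2 at 0.06 were nearest to Ccl2. Ccl9 was matched to 0.01 by Tpgs1 and Mrpl1, and Ccr2 to 0.02 by Ahcyl2 and Ahnak. For Ccr1 they were 9830107B12Rik at 0.02 and Timp2, an inhibitor of matrix metalloproteinases, at 0.09. A small distance says nothing of shared control.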

How the data were processed

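RNA of flushed BM cells was sequenced by the authors from 1 library at each of 0, 3 and 5 days of LECT2 (Illumina TruSeq, oligo(dT) selection, quantitation with Cufflinks per the methods). The submitters' processing notes name the build mm8, and the aligner is not given in the sources used here. The authors deposited 3 pairwise tables with whole read counts per gene, gene length and RPKM. The deposited RPKM equalled the counts over the length and the reads on all genes, within 0.1%, apart from 32 values of at most 36 reads. Genes without reads, listed by the authors at 0.01 RPKM, were set to 0. The authors' log2 ratios, P values and false discovery rates were not used.

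The tables were joined by gene ID (17559 rows), and where a name had several rows (232 names) only the most abundant by mean RPKM was used. This leaves Csf3r and Ctss, with 2 rows each, at few reads. Ratios were log2 of RPKM + 0.1. Ratios of counts have exact Clopper-Pearson intervals, ratios between genes within a library exact conditional intervals of the odds ratio, and RPKM exact Poisson intervals, all 95% and for counting error only, since reads amplified by PCR carry no molecular identifiers and cannot be taken as separate molecules. No fold is given where a library has 3 reads or fewer. No test was made, with 1 library per time point. Genes named are the 7 members, other CC genes averaging 1 RPKM or more, the 4 most abundant genes of each list and the 2 nearest genes to each member. Csf1r, Cxcr2, Cd14, Ccl7, Ccl8, Rgs2, Adrbk2, Grk5, Jak2 and Ms4a2 fall outside this rule and were named after their values were seen. The members, lists and rules were chosen with earlier results of these data known. Of the 12 lists, Ccl11, Ccl21a, Ccl26, Arrb2 and Trac have no row.

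Alternatives were pseudocounts of 1 and 0.01, TMM factors (edgeR 4.0.16), median-of-ratios factors (DESeq2 1.42.0), the reads outside the 100 most abundant genes, removal of the length trend (lowess, span 0.3, statsmodels 0.14.6), the sum of rows, minima of 5 and 0 RPKM and a fold of 4. Python 3.11.15, scipy 1.17.1 and R 4.3.3 were used, and the steps were checked on simulated counts. Positions are GENCODE M21 (GRCm38), and promoters RefSeq (GRCm38.p6), found for 5 of the 7 genes. No coordinate was converted between builds. Some items of the gene lists and sequences are not reported here.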

Additional observations from a re-analysis of the deposited data

Results flagged for a closer look

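Ccr1 was picked out because its log2 ratio against 0 days was 0.30 at 3 days and −1.30 at 5 days, opposite directions that were both beyond counting error. With the deposited RPKM Ccr1 was the only one of the 7 genes of which this held. With the length trend removed, Ccl2 (0.61 and −0.74) and Ccl6 (0.13 and −0.98) also had opposite directions. The difference between the time points was not tested, because each is 1 library.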

How the results depend on the processing

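Every direction of the 21 log2 ratios (7 genes in 3 comparisons) was kept under the 7 alternatives that recompute them, with 1 exception. Ccl6 at 3 against 0 days, at −0.08, was 0.13 with the length trend removed. Of 147 recomputed ratios 69 others moved beyond their counting interval, all under the 3 other scalings of the libraries or the removal of the length trend, and 0 moved so under other pseudocounts or the sum of rows. From 3 to 5 days 3 members were at least 2-fold lower with the deposited RPKM and 5 with the length trend removed, under TMM, when scaled by median-of-ratios factors and when the 100 most abundant genes were dropped from the totals, Ccl3 and Ccl6 being just short of 2-fold at first. At 5 against 0 days 4 were lower, with 5 under TMM and 3 with the length trend removed. With a limit of 4-fold 0 genes were lower at 3 days, 1 lower and 0 higher at 5 days, and 0 lower from 3 to 5 days. Shares of all genes were computed only at 2-fold with a minimum of 1 RPKM, for the deposited RPKM, TMM scaling and removal of the length trend. The counts under the other alternatives have no such share beside them. A minimum of 5 RPKM or none left all counts as they were. No paired analysis was possible because there is 1 library per time point, for which reason no library could be left out either. At this depth Ccl2 at 3 against 0 days was the 1 ratio of the 21 with a counting interval that spans 0. The length trend was also removed from the ratios between genes, an alternative chosen after seeing the data.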
